A study of Mus musculus with 3 samples.

Results

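The 44 genes described here encode the lysosomal proton pump, lysosomal hydrolases and their helper proteins, and proteins of the lysosomal membrane. They were chosen by name, as a list of symbols, from the 55536 annotated genes of the deposited tables. The rule used no measured value, but the list was drawn up with earlier results of these data known. All 44 symbols matched a gene identifier. By role they were 7 genes of the membrane-embedded V0 sector of the pump, 8 of its cytosolic V1 sector, 2 pump accessory proteins, 8 membrane proteins, 10 glycosidases and sulfatases, 6 lipid hydrolases and lipid-binding proteins, and 3 proteases or progranulin.

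The samples were bone-marrow-derived macrophages (BMDM, primary macrophages grown out of marrow) of the mouse strain C57BL/6J. Every culture had received Lipid A, the lipid anchor of bacterial lipopolysaccharide and a ligand of the receptor TLR4, at 100 ng/ml for 10 minutes. RNA that stayed with the chromatin fraction was depleted of ribosomal RNA and sequenced as total RNA. There was 1 group of 3 libraries, labelled biological replicates 1, 2 and 3, made from 1 µg, 250 ng and 500 ng of RNA. The labels name no genetic change, give sex and age as not collected, and carry 1 donor entry for all 3 libraries, so technical differences may make up some of the spread between them. Unstimulated cells are not analysed here, and the values below are levels after Lipid A and not responses to it.

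The vacuolar-type proton pump, or V-ATPase, uses ATP hydrolysis in its V1 sector to drive protons through its V0 sector into the lysosome. The acid interior activates hydrolases that break down proteins, glycans and lipids. Macrophages are rich in lysosomes because they digest engulfed particles and dying cells. Many lysosomal genes are known targets of the transcription factors TFEB, TFE3 and MITF, which bind a palindromic E-box in promoters.

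Replicates 1, 2 and 3 held 15698066, 16005795 and 14386725 estimated counts in genes, and the members' own counts ran from 27 to 46856 per library. All 10 macrophage markers checked, among them Csf1r, Lyz2 and Mertk, were detected, which here means a TPM (a length-normalised transcript abundance) of at least 1 in all 3 libraries. By the same rule none of the neutrophil, T cell, B cell, fibroblast and mast cell markers was detected, 1 of 6 erythroid markers (Alas2) and 1 of 6 dendritic cell markers (Zbtb46) were, and 2 of 8 osteoclast markers were, at a mean TPM of 3.55 for Itgb3 and 1.61 for Ctsk. In the second quantification described further on, some undetected markers were higher. Mean TPM there was 11.4 for Cd3d, 3.21 for Cd8a, 10.5 for Thy1 and 2.75 for Ocstamp, but 0.071 for Cd3e and 0.044 for Lck. Other cell types are therefore not shown to be absent. In bulk RNA, fewer cells of a type and less RNA per cell cannot be told apart. Protein coding genes held 31.6%, 25.3% and 22.2% of the TPM of replicates 1, 2 and 3, so a TPM also moves with the share of the other RNAs. For that reason levels of different genes are compared as TPM within a library, and libraries are compared as scaled CPM (counts relative to library size after TMM scaling).

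All 44 members were detected by this rule, where 24.4% of all annotated genes and 45.9% of protein coding genes were. Their median TPM was 76.7, 60.0 and 59.0 in replicates 1, 2 and 3, or 65.2 ± 9.96 (SD, n = 3), beside 11.7 ± 2.17 for the 10120 detected protein coding genes. Set against those genes, 40 members lay above the 50th percentile of mean TPM and 26 at or above the 90th. Together the members took 0.949% ± 0.102 (SD, n = 3) of all gene counts. A pair of genes, Tcirg1 and Psap, held 36.1% ± 1.58 (SD, n = 3) of the members' summed TPM. At the other end, Glb1, Atp6v1f, Arsb and Smpd1 had a mean TPM under 10.

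**Figure D1:**
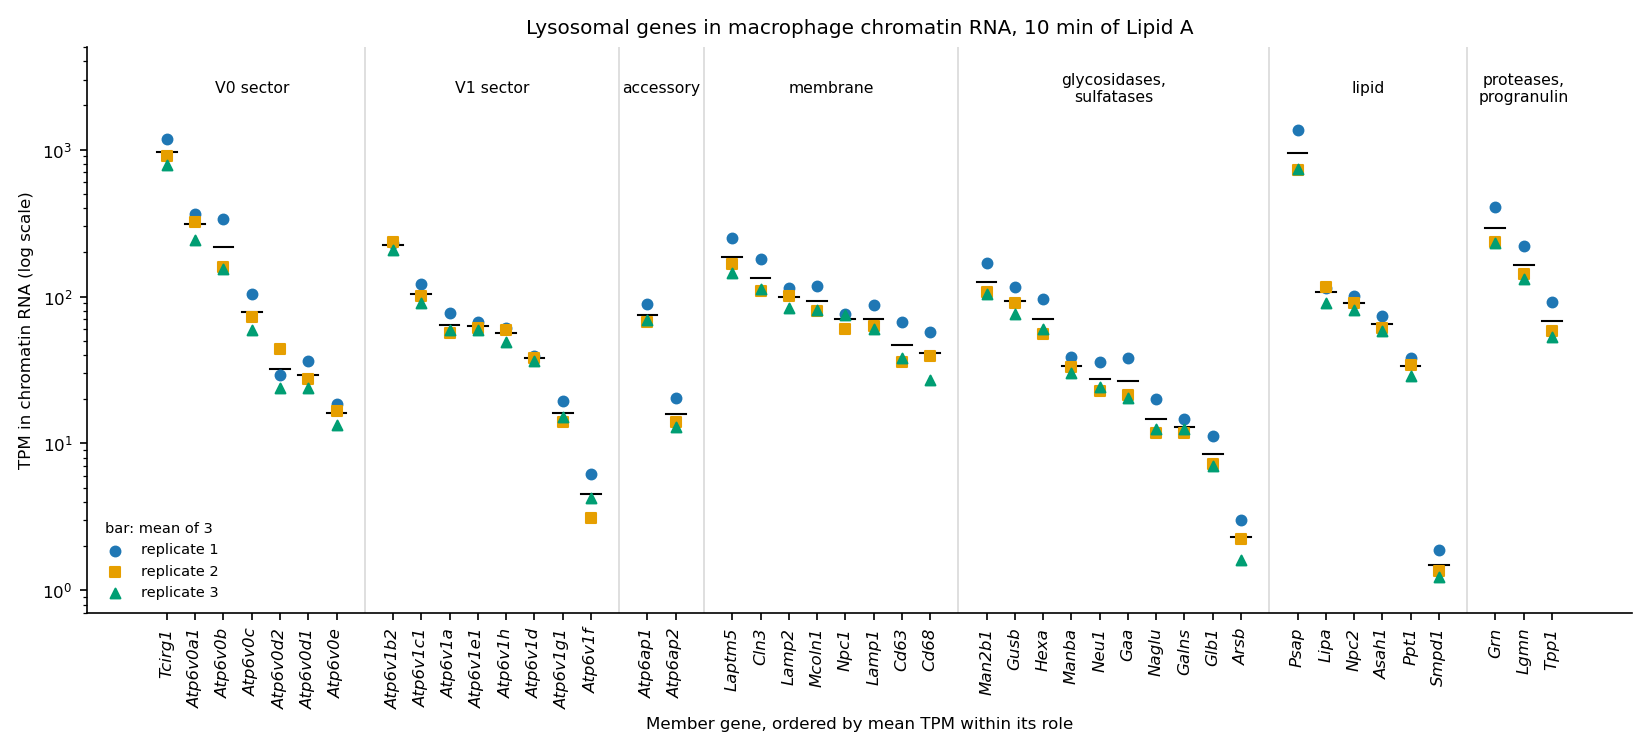
TPM of each of the 44 members in the 3 libraries (points, log axis) with the mean of the 3 (bar), grouped by role and ordered by mean TPM within each role. Tcirg1 and Psap stand at the top with means of 958 and 945, and Smpd1 is lowest with a mean of 1.49.

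The a subunit of the V0 sector, which carries the proton path and directs the pump to a membrane, is encoded by alternative genes. Tcirg1 (the a3 form, known from osteoclasts and lysosomes, chromosome 19, 3896050 to 3907133 on the minus strand in mm10) had a TPM of 1183, 906 and 786 in replicates 1, 2 and 3. Its mean of 958 ± 204 (SD, n = 3) was exceeded by that of 2 other detected protein coding genes. Atp6v0a1 (the a1 form, chromosome 11, 101009452 to 101063719 on the plus strand) followed at 365, 322 and 244. The lowest library of Tcirg1 lay above the highest library of Atp6v0a1, so the groups of values did not overlap. On the log2(TPM + 1) scale Tcirg1 exceeded Atp6v0a1 by 1.70, 1.49 and 1.69, a mean of 1.62 ± 0.12 (SD, n = 3) or 3.08-fold. An exact permutation test that flips the signs of these 3 differences (two-sided) gave p = 0.25, the smallest it can give with 3 libraries, and an adjusted p of 0.5 over the 2 pairs tested. The size of the difference depended on the measure. Its mean was 1.365 in the second quantification described further on and 1.03 without length normalization. Atp6v0a2, which encodes the a2 form, was much lower at 24.1, 13.3 and 13.7, and Atp6v0a4, the form known from kidney, was listed at 0 counts in all 3 libraries.

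The d subunit, which couples the rotor of V1 to the membrane ring, also has alternative genes, and here neither led in TPM. Atp6v0d1, the widely expressed form, had a TPM of 36.6, 27.4 and 23.7. Atp6v0d2, the form known from osteoclasts and macrophages, had 29.4, 43.7 and 23.7. Atp6v0d2 was lower than Atp6v0d1 in replicate 1, higher in replicate 2 and level with it in replicate 3, and the ranges overlapped. The difference on the log2(TPM + 1) scale averaged 0.12 ± 0.49 (SD, n = 3), with an exact sign-flip permutation p of 0.75 and an adjusted p of 0.75. Its direction turned without replicate 2, where the mean difference was -0.15. The measure mattered here too. In the second quantification described further on Atp6v0d2 was higher in replicates 1 and 2 and lower in replicate 3, with a mean difference of 0.257. Without length normalization the mean difference was 1.24, from 927, 1679 and 927 counts for Atp6v0d2 and 589, 433 and 404 for Atp6v0d1.

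Among the other V0 genes Atp6v0b, which encodes the c'' subunit of the proton-carrying ring (chromosome 4, 117884326 to 117887333 on the minus strand), had a TPM of 337, 158 and 154. Replicate 1 was highest, as it was in scaled CPM. Atp6v0c, which encodes the main c subunit of the ring, reached 78.4 ± 23.5 (SD, n = 3) and lay below Atp6v0b in every library. Atp6v0e, a small subunit, was the lowest V0 gene at 18.5, 16.5 and 13.4. Its alternative gene Atp6v0e2 was listed at 0 counts in the gene tables of all 3 libraries, but at a mean TPM of 2.58 in the second quantification described further on.

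In the V1 sector 7 of 8 genes had a mean TPM between 16.2 and 225. Atp6v1b2 (chromosome 8, 69088646 to 69113711 on the plus strand), the B subunit of the ATP-hydrolysing head, led with 232, 236 and 209 TPM, a spread of 225 ± 14.7 (SD, n = 3). Its alternative gene Atp6v1b1, known from kidney and inner ear, stood at 0.58, 1.17 and 0.72. Atp6v1c1, the C subunit that links the sectors, followed at 121, 101 and 90.7, where Atp6v1c2 averaged 0.163. Atp6v1a, the catalytic A subunit, had 77.5, 56.1 and 59.2. Its range overlapped those of Atp6v1e1 (62.8 ± 4.21, SD, n = 3), an outer stalk subunit, and Atp6v1h (56.7 ± 6.52), which regulates ATP hydrolysis. Its order against them changed between libraries, so the place of Atp6v1a among these 3 genes is not settled. Atp6v1e1 exceeded Atp6v1h in each library, and also in each library of the second quantification. Atp6v1d of the central rotor had a mean TPM of 38.1, and Atp6v1g1 of the outer stalk 16.2. Atp6v1f, the other rotor subunit, was lowest at 6.19, 3.12 and 4.28, from 45, 27 and 37 counts.

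The V1 median minus the V0 median on the log2(TPM + 1) scale was -0.37 ± 0.29 (SD, n = 3). It was -0.66 in the second quantification and -0.22 without replicate 1. For each of the subunits B, C, E and G 1 gene led in every library. Atp6v1g1 exceeded Atp6v1g2, whose TPM was 5.84, 4.67 and 4.70, and the genes Atp6v1e2 and Atp6v1g3 were listed at 0 counts in all 3 libraries. In the second quantification the mean TPM was 0.797 for Atp6v1g3, 13.3 for Atp6v1g2 and 21.6 for Atp6v1g1. Of the 8 alternative subunit genes, 2 were detected and 4 were at 0 counts in the first quantification. A count of 0 leaves room for 3 counts, or 0.191, 0.187 and 0.209 CPM in the 3 libraries, a limit for counting error only. The accessory protein Atp6ap1, which takes part in pump assembly, reached a TPM of 89.2, 66.6 and 69.1. Atp6ap2, also known as the prorenin receptor, was lower in each library at 20.3, 14.1 and 12.9.

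**Figure D2:**
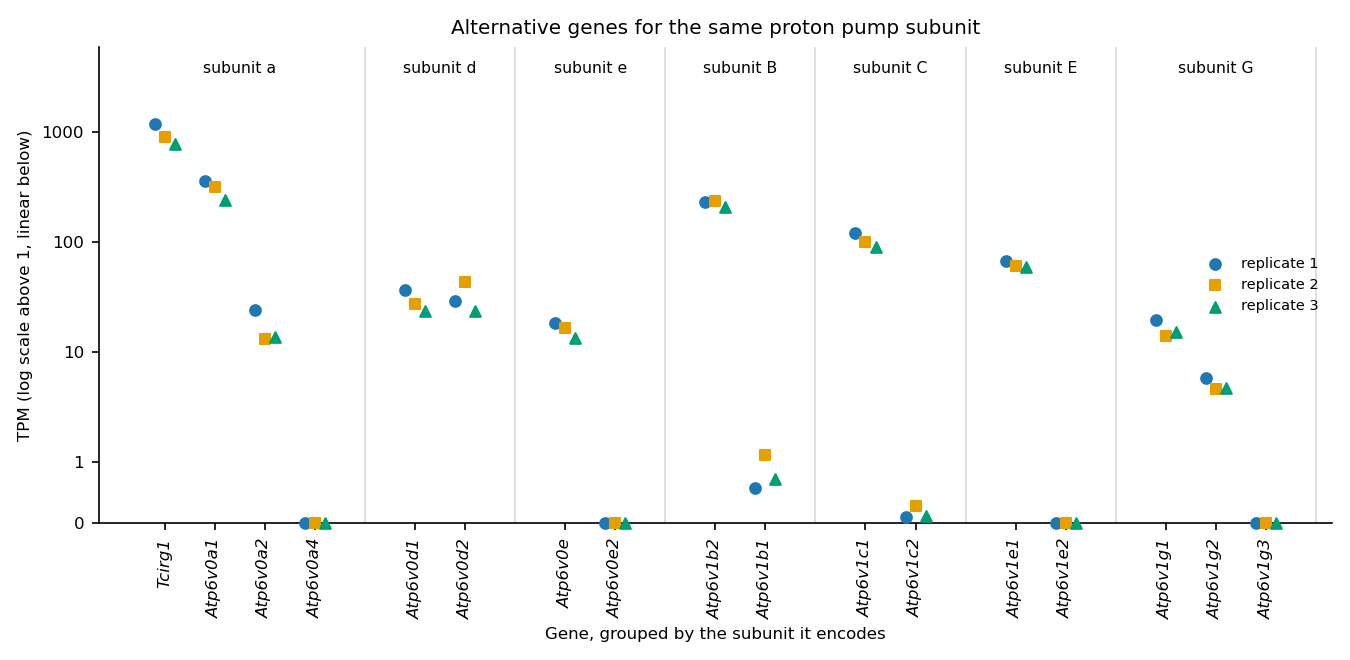
TPM in the 3 libraries for genes that encode the same pump subunit, on an axis that is logarithmic above 1 and linear below. For subunits a, B, C, E, e and G the points of the leading gene lie above those of its alternatives, and for subunit d the points of Atp6v0d1 and Atp6v0d2 overlap.

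Among the membrane proteins Laptm5, a lysosomal protein of blood cells (chromosome 4, 130913125 to 130936141 on the plus strand), had the highest TPM at 249, 166 and 146. Cln3, the gene mutated in juvenile Batten disease, followed at 179, 109 and 112. The ranges of these genes overlapped, although Laptm5 was higher in each library. Lamp2, a main glycoprotein of the lysosomal membrane, had 114, 101 and 83.8. Lamp1, its close relative, averaged 70.1 ± 14.8 (SD, n = 3), beside 92.9 ± 21.2 for Mcoln1, the lysosomal calcium channel, and 70.5 ± 8.82 for the cholesterol exporter Npc1. Cd63 averaged 46.9 ± 17.1, and the macrophage marker Cd68 had the lowest mean, from 57.2, 39.6 and 26.8, although Cd63 was below it in replicate 2. In the second quantification described further on Cd68 exceeded Cd63 in each library and Cd63 was lowest. The lowest library of Lamp2 exceeded the highest library of Cd63, whereas the ranges of Lamp2, Mcoln1 and Lamp1 overlapped. Within each library Lamp2 and Mcoln1 nevertheless exceeded Lamp1, while the order of Lamp2 and Mcoln1 changed between libraries.

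Glycosidases and sulfatases, which strip sugars and sulfate groups from glycans, had the lowest role median, 27.1 ± 8.73 TPM (SD, n = 3). Man2b1, the lysosomal alpha-mannosidase (chromosome 8, 85083270 to 85098282 on the plus strand), led with 169, 107 and 104. Gusb, the beta-glucuronidase, had 115, 89.8 and 76.4, and Hexa, the alpha chain of beta-hexosaminidase, had 96.3, 55.8 and 60.4. Gusb was higher than Hexa in every library, though their ranges overlapped. This order turned in the second quantification described further on, where Hexa had 122, 107 and 116 against 99.2, 89.6 and 90.2 for Gusb, and a higher mean than Man2b1 (115 against 112). The acid alpha-glucosidase Gaa, the beta-mannosidase Manba, the sialidase Neu1, the heparan sulfate enzyme Naglu and the sulfatase Galns lay between mean TPM values of 13.0 and 33.9. The beta-galactosidase Glb1 averaged 8.50, and the sulfatase Arsb was lowest at 3.01, 2.25 and 1.62.

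Psap led the lipid group and encodes prosaposin, the precursor of the saposins that present lipids to hydrolases (chromosome 10, 60277627 to 60302597 on the plus strand). Its TPM was 1361, 730 and 744. Its scaled CPM, 3009, 1842 and 2260, was likewise highest in replicate 1, and replicate 2 was lowest. Lipa, the acid lipase that frees cholesterol and fatty acids, had 115, 116 and 90.8, and the cholesterol-binding protein Npc2 had 100.1, 90.5 and 80.6. The acid ceramidase Asah1 averaged 64.7 and the thioesterase Ppt1 33.8. Asah1 was below Npc2 in each library here and above it in each library of the second quantification. Smpd1, the acid sphingomyelinase, was the lowest of all 44 members at 1.87, 1.35 and 1.24, from 58, 52 and 46 counts.

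The last role had the highest median, 165 ± 48.8 TPM (SD, n = 3). Grn, which encodes progranulin, a secreted and lysosomal glycoprotein (chromosome 11, 102430315 to 102437048 on the plus strand), had 407, 236 and 233. Lgmn, the asparaginyl protease legumain, had 221, 143 and 131, and Tpp1, the tripeptidyl peptidase, had 92.2, 58.7 and 52.8. Within each library the order was Grn, Lgmn, Tpp1. All 3 were highest in replicate 1.

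Lists of further lysosomal genes place the members. All 12 cathepsin genes were detected, led by Ctsb at a TPM of 765, 572 and 446 and by Ctsa at 559, 330 and 312, with Ctsk lowest at 2.00, 1.23 and 1.59. Of 22 other hydrolases and cofactors 21 were detected, among them Galc, which breaks down galactolipids, at a mean of 67.9, with the osteoclast phosphatase Acp5 lowest at 0.15. Of 22 other membrane proteins 20 were detected, led by the ion channel Tpcn2 at 219 and the chloride exchanger Clcn7 at 142, while Lamp3 was listed at 0. All 9 sorting genes were detected, with Gga1 at 52.5, Gga3 at 50.6 and Sort1 lowest at 4.49. The 9 pump assembly and regulatory genes were detected as well, with Dmxl1 at 106, Wdr7 at 79.7 and Vma21 lowest at 4.54. The list medians were 61.4 for cathepsins, 17.5 for the other hydrolases, 23.7 for the other membrane proteins, 20.4 for sorting genes and 23.5 for assembly genes, beside 65.2 for the 44 members.

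The promoters are shown because many lysosomal genes share the E-box named above. RefSeq promoters (GRCm38.p6, 250 bases before to 50 after the start site) were matched for 36 members. The hexamer CACGTG, a palindrome and thus the same on both strands, was found in 11 of them, or 30.6%, beside 8.09% of 27025 genes with a promoter entry, 7.15% of all 32851 promoters and 12.2% of 8067 detected protein coding genes. In all 11 it was part of TCACGTG on one strand or the other, which 4.29% of genes and 7.54% of detected protein coding genes held. The full 8-letter palindrome TCACGTGA, which contains both shorter forms, was found in 5, or 13.9%, beside 1.12% of genes and 2.42% of detected protein coding genes. The 11 genes came from several roles: Atp6v0b, Atp6v0d1, Atp6v0e and Atp6v1a of the pump, Lamp1, Mcoln1 and Cln3 of the membrane, and Gaa, Glb1, Naglu and Lgmn of the enzymes. Windows of 28 bases around the match are given 5′ to 3′ in the direction of the gene, with the match in capitals, for the 5 genes that hold the 8-letter form and for the genes with most matches:
Atp6v0d1, chr8:105566051-105566078, minus strand: cctactgcggTCACGTGAgacgcggtgc
Atp6v0e, chr17:26676388-26676415, plus strand: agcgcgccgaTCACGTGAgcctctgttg
Atp6v1a, chr16:44139374-44139401, minus strand: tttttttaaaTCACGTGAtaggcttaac
Cln3, chr7:126583341-126583368, minus strand: acgggtactgTCACGTGAcccccaacct
Mcoln1, chr8:3500463-3500490, plus strand: ggcgccccgcTCACGTGAccgcggcgca
Atp6v0b, chr4:117887349-117887376, minus strand: tgcgcgggggTCACGTGgggtcggcgca
Lamp1, chr8:13159089-13159116, plus strand: gggcaagataTCACGTGgtccagcgccc
Lamp1, chr8:13159135-13159162, plus strand: cgtgaccacaTCACGTGcggaacggagc

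Of 17 matches in these promoters 16 began before the start site and 12 of them within 75 bases of it. Lamp1 held 4 matches, and Atp6v0b, Cln3 and Mcoln1 held more than 1. The match of Atp6v0d1 began 3 bases before the start site and that of Atp6v0e just after it. Members with the hexamer had a median TPM of 64.2 ± 11.5 (SD, n = 3 libraries), and the 25 members with a promoter but no match had 71.0 ± 18.4. By library the medians were 77.45, 56.08 and 59.2 with the hexamer and 92.15, 61.19 and 59.56 without it. The median with the hexamer was thus lower in each library, though barely in replicate 3, and the difference was not tested. Tcirg1 and Psap, the most abundant members, had no match in this window. A match describes letters and not binding, which was not measured.

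**Figure D3:**
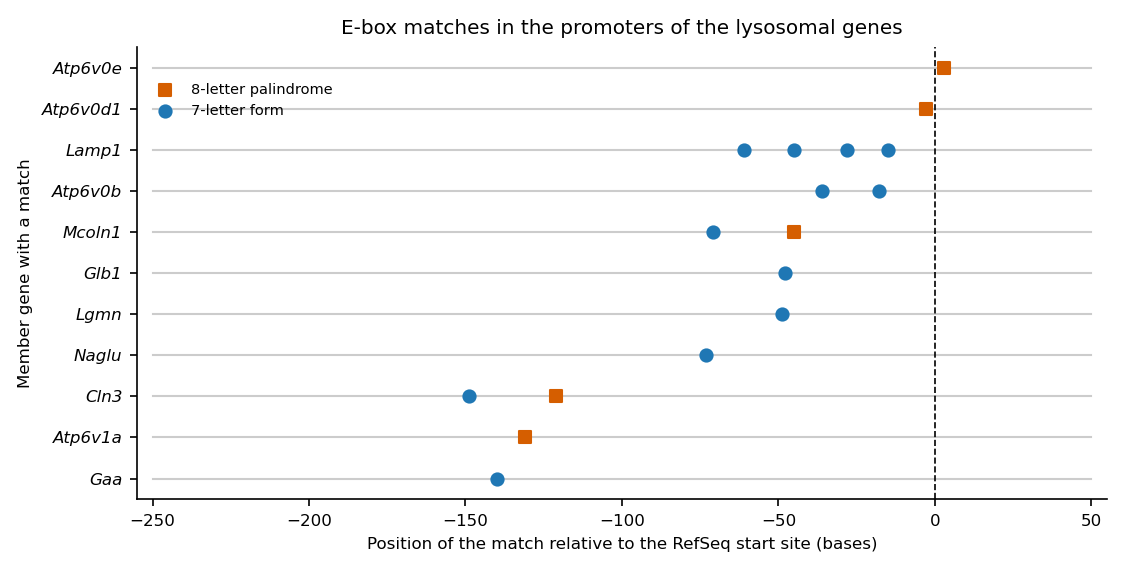
Position of each E-box match relative to the RefSeq start site (dashed line), for the 11 members with a match. Grey lines span the searched window, squares mark the 8-letter palindrome and circles the 7-letter form, and the 4 matches of Lamp1 lie within 61 bases before the start.

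After scaling, no member differed 2-fold between its highest and lowest library, where 11.4% of genes with a mean count of 10 or more did, a set that includes much rarer genes. Among the 8361 protein coding genes with a mean count of 100 or more, a set that holds 42 of the members, 2.30% did. The median SD of log2 scaled CPM was 0.196 for the members, 0.197 for all genes with a mean count of 10 or more, and lower, at 0.157, for the protein coding genes with a mean count of 100 or more.

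The largest SD belonged to Atp6v0b (0.48), with a scaled CPM of 163, 84.4 and 103. Atp6v1f (0.39) had 2.89, 1.58 and 2.72, and Atp6v0d2 (0.37) had 59.5, 98.5 and 68.1. Atp6v0b and Atp6v1f were highest in replicate 1 and lowest in replicate 2, and Atp6v0d2 ran the other way. The most even genes were Lamp2 (SD 0.03) with 277, 287 and 285, Ppt1 (0.04) with 60.7, 61.6 and 64.1, and Npc2 (0.04) with 169, 172 and 179. For these genes the 3 libraries were within 1.1-fold of each other, as they were for 5 members in all, a count given without a share over all genes.

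A shared order of the libraries ran through most members. Scaled CPM was highest in replicate 1 for 28 of 44, beside 36.6% of all genes with a mean count of 10 or more. It was lowest in replicate 3 for 5, beside 29.1%. It was lowest in replicate 2 for 31 members, beside 33.9% of genes, a count made after the values were seen. The median member was higher in replicate 1 than in replicate 2 by 0.29 on the log2 scale and than in replicate 3 by 0.13. The medians over all these genes were -0.01 and 0.00. Over protein coding genes they were 0.05 and 0.02, in the same direction as the members but smaller. Each library was made from a different amount of RNA, so amount and replicate cannot be told apart, and the part of either in this order was not tested.

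The order differed by role. The 3 genes Grn, Lgmn and Tpp1 were highest in replicate 1 and lowest in replicate 2, as were most glycosidases and sulfatases, with 8 of 10 highest in replicate 1 and 9 of 10 lowest in replicate 2. Membrane proteins followed, with 6 of 8 and 6 of 8. In the V1 sector 7 of 8 genes were highest in replicate 3, beside 28.7% of all genes, the exception being Atp6v1f. That V1 count was 7 with DESeq2 size factors, with scaling over protein coding genes and without the count filter, 6 in the second quantification, and 3 without a scaling factor. The difference between roles was not tested. In the list of other hydrolases and cofactors 16 of 21 genes with a mean count of 10 or more were highest in replicate 1. So were 9 of 12 cathepsin genes, 6 of 9 sorting genes and 12 of 21 other membrane proteins. Lowest in replicate 2 were 15, 6, 6 and 13 of these, and 6 cathepsin genes were lowest in replicate 3. Of 9 pump assembly genes 2 were highest in replicate 1 and 5 in replicate 3, and of 3 alternative subunit genes 1 and 2. The macrophage markers Adgre1, Csf1r, Itgam, Lyz2, Fcgr1, Cd14 and Spi1 were highest in replicate 1. Mrc1 and Mertk were highest in replicate 3 and Msr1 in replicate 2. A highest value in replicate 1 was thus not limited to lysosomal genes.

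**Figure D4:**
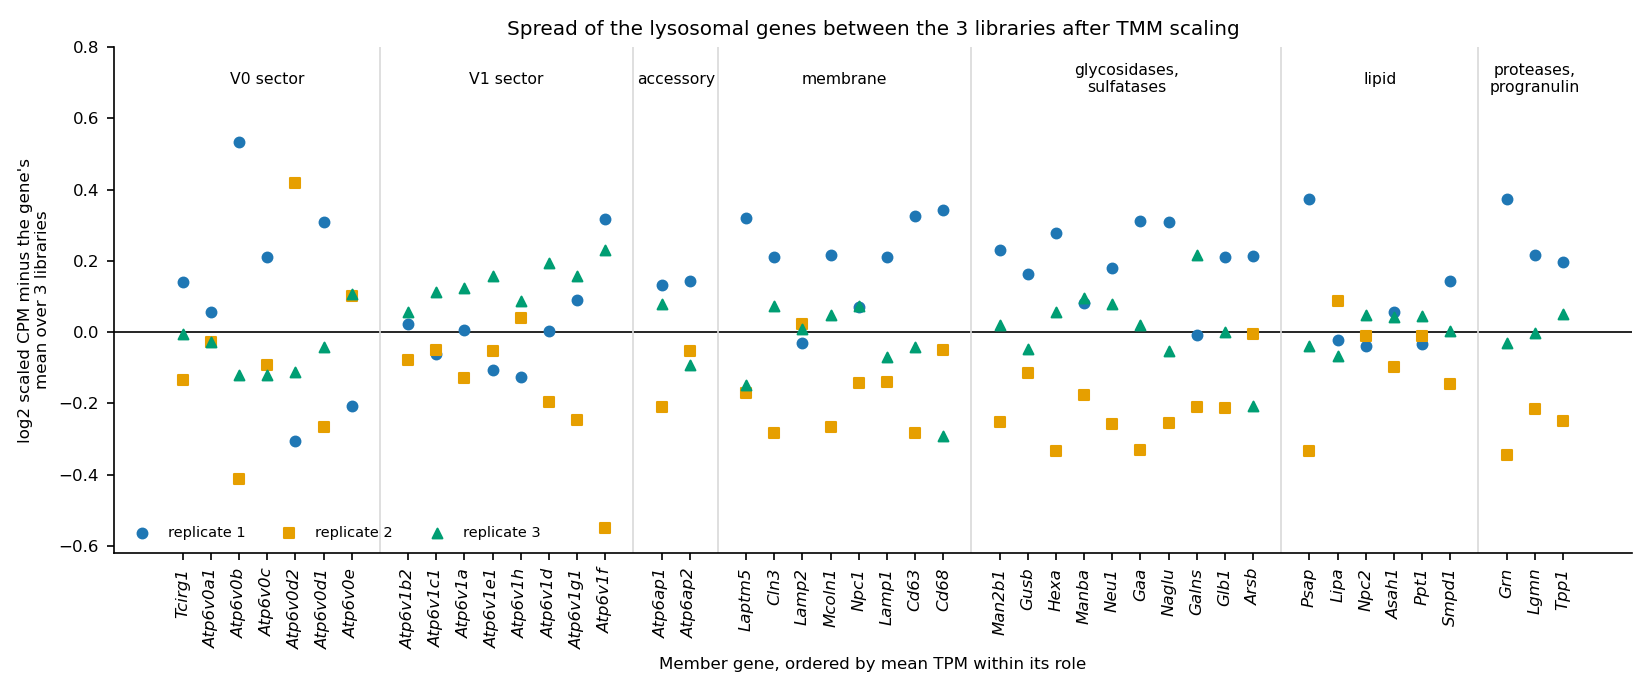
Log2 scaled CPM of each member in each library minus that gene's mean over the 3 libraries, grouped by role. Replicate 1 lies above the other libraries for 28 of the 44 members, while in the V1 sector replicate 3 is on top for 7 of 8.

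Chromatin RNA is known to hold transcripts that have not lost all their introns. In the transcript tables a read from an intron can be counted for an annotated model that contains it. Transcript models of the class retained intron exist for 28 members, all of them detected. Their median share of the gene's TPM was 43.2%, 52.5% and 53.0% in replicates 1, 2 and 3, or 49.6% ± 5.50 (SD, n = 3). Over all 6523 detected genes with such a model it was 44.8%, 49.2% and 45.9%, or 46.6% ± 2.31. The members were thus lower in replicate 1 and higher in replicates 2 and 3. This comparison depended on the measure. From estimated counts in place of TPM the median share was 40.1% for the members and 30.2% over all genes. In the second quantification it was 43.5% and 44.5%. The difference was not tested. The share reached 50% or more in 13 of the 28 members, or in 44.3% of all such genes. It was lowest in replicate 1 for 19 of the 28, beside 47.6% of genes. Those 19 are not the same set as the members highest in replicate 1. They include Neu1, whose scaled CPM was highest in replicate 1. They also include all 6 V1 genes with such a model, whose scaled CPM was highest in replicate 3. The part of the retained intron share in the order of the libraries was not tested.

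Single members ranged widely. Neu1 (chromosome 17, 34931253 to 34935953 on the plus strand) had 88.8%, 96.8% and 96.3% of its TPM in retained intron models, most of it in the 3619-base Neu1-202 with 91.6% ± 4.14 (SD, n = 3). Protein coding models of this sialidase held 6.03%. Atp6v1b2, the leading V1 gene, had 75.8%, 84.7% and 82.7%, and Npc2 had 78.6%, 76.4% and 80.3%. Tpp1 followed closely at 78.3% ± 1.71 (SD, n = 3), and Tcirg1, with 7 such models, was at 65.9% ± 2.05. The lowest shares were those of Lamp2 at 18.0%, 19.2% and 18.6%, Manba at 17.3%, 19.9% and 31.2%, and Lipa at 26.3%, 31.7% and 26.9%. In all libraries the 3 highest genes lay above the 3 lowest with a wide gap. The 6 V1 genes with such models had a median share of 61.8% ± 4.38, and the 6 membrane proteins 37.3% ± 4.99, a difference that was not tested.

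For 24 of the 44 members protein coding models held under 50% of the TPM, beside 44.1% of detected protein coding genes. In some of them the rest lay in models classed as processed transcript, which have no coding frame: 79.9% for Atp6v0c, 75.1% for Atp6v0a1, 72.0% for Laptm5 and 54.3% for Arsb. Gusb had 28.9% in models marked for nonsense-mediated decay. Psap, Hexa, Atp6v0d2, Atp6v0e, Atp6v1f and Atp6v1g1 had all of their TPM in protein coding models. None of these genes has a retained intron model, and Hexa and Atp6v1g1 have only 1 annotated transcript, so the annotation fixes their value. The model with the largest mean share was protein coding for 27 members, retained intron for 12, processed transcript for 4 and nonsense-mediated decay for 1, and it led in all 3 libraries for 31. No share over all genes is given beside these counts, so they do not set the members apart. The second quantification gave the same leading model for 29 of the 44. Psap-202, for one, held 69.4% of Psap in the first quantification and 1.18% in the second, so single models are less certain than genes.

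**Figure D5:**
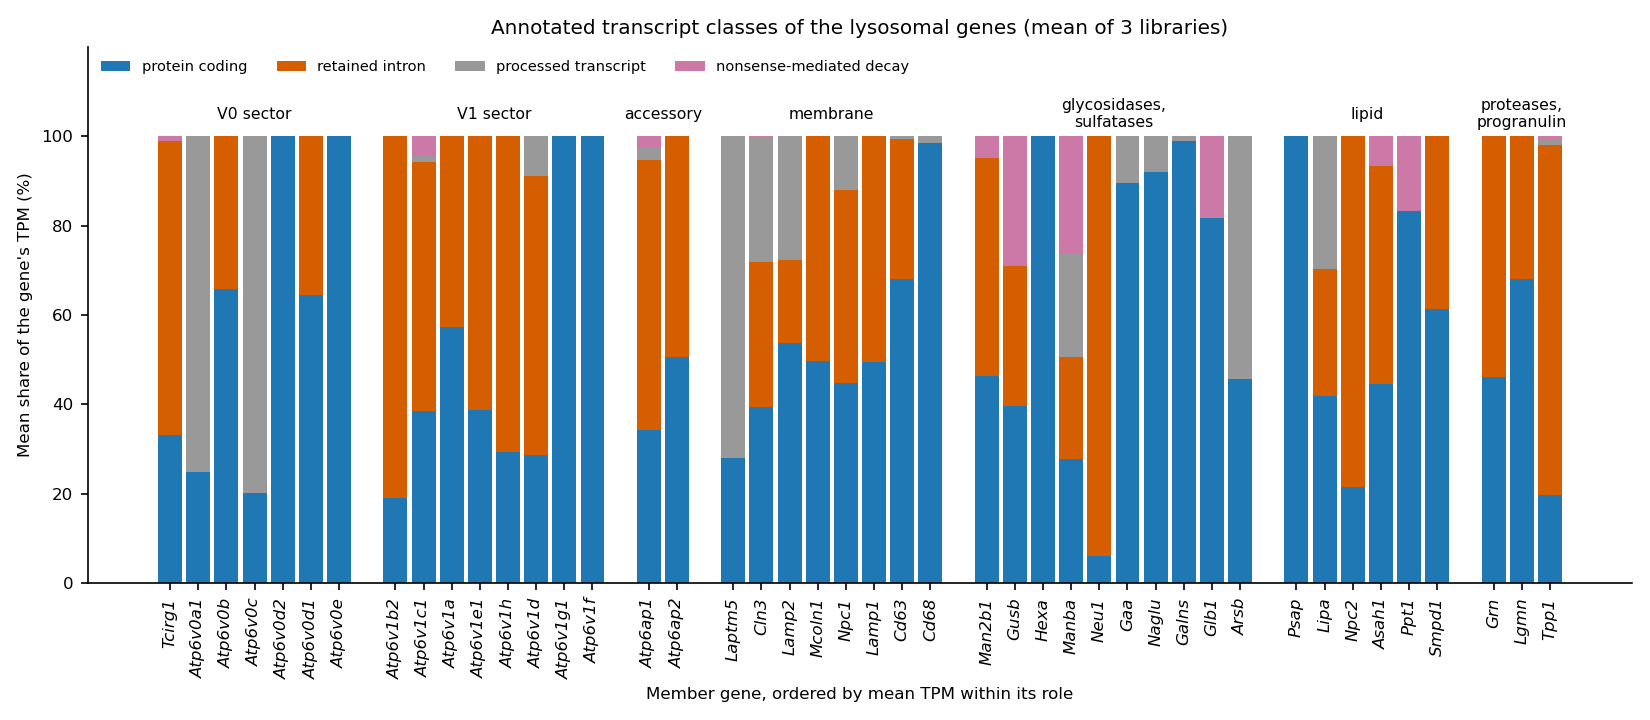
Mean share of each member's TPM (3 libraries) in protein coding, retained intron, processed transcript and nonsense-mediated decay models, grouped by role. The bar of Neu1 is almost wholly retained intron, and that of Hexa, which has 1 annotated transcript, is wholly protein coding.

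A second quantification of the same reads, made from the reads and an index rather than from alignments, gave most members higher values. It was higher for 35 of 44, beside 80.4% of detected protein coding genes, and the median member was 1.30-fold higher against 1.26-fold for those genes. Atp6v0d2 moved most, to a TPM of 59.9, 92.1 and 45.9, or 2.04-fold. Gaa came next at 66.2, 48.5 and 42.3 (1.97-fold), and then Manba at 63.6, 66.1 and 62.3 (1.89-fold). The largest falls were small: Cd63 to 47.5, 27.9 and 33.4 (0.774-fold), Man2b1 to 133, 95.9 and 106 (0.882-fold) and Smpd1 to 1.42, 1.13 and 1.18 (0.836-fold). All 44 members were also at a TPM of 1 or more in every library there, and Tcirg1 and Psap again led the members, at means of 1086 and 987.

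Reads were assigned to the members with little ambiguity between genes. The deposited error of read assignment, as a standard deviation of counts, was 0 for 33 members and at most 1.44% of the count, in Arsb. No source used here says whether strand was used in counting, and the effect of overlapping genes was not tested. Of the members, 15 overlap another annotated gene, 13 of them one on the opposite strand, and for 7 that gene was itself detected: Atp6v1b2 with Slc18a1, Atp6v1e1 with Slc25a18, Lamp1 with Grtp1, Npc1 with Rmc1, Manba with Oaz2-ps, Cln3 with Apobr and Ppt1 with Cap1. Galns lies within Gm20388 on the opposite strand, and Glb1 shares 6172 bases with Tmppe on the same strand. Values of these genes are uncertain to that extent.

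Across the 44 members mean log2 TPM went with the number of annotated transcripts (Pearson r 0.546, Spearman rho 0.594), and less with the largest exon number (0.443 and 0.421). Over detected protein coding genes the first pair of values was 0.431 and 0.450, and the pair for exon number was 0.350 and 0.405. With gene span no relation was seen among the members (-0.005 and -0.052), where detected protein coding genes had 0.235 and 0.249. These are descriptions across genes of the same libraries, and genes are not independent replicates.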

How the data were processed

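The 3 libraries of chromatin-fraction RNA from 1 group are described above. The authors deposited, per the file headers, an estimated count and a TPM for each gene and each transcript, with the error of assigning reads as a standard deviation, and a further transcript table of estimated counts and TPM. Per the deposited readme files, the former were derived from transcriptome alignments and the latter from the reads and an index, both with mm10 and GENCODE M21. Programs, versions and use of strand: not given in the sources used here. Rows that named no annotated gene held 1.16%, 0.459% and 0.351% of the counts of replicates 1, 2 and 3 and were left out.

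The members and lists were chosen with earlier results of these data known. From the deposited tables, estimated counts were rounded to whole numbers and scaled by the TMM method of edgeR 4.0.16 in R 4.3.3, over 15877 genes with a mean count of 10 or more, giving factors of 0.992, 1.065 and 0.946. The SD of log2 scaled CPM used a pseudocount of 0.5, and log2 TPM a pseudocount of 1. Fits across genes gave no p-value, since there was 1 group, and the common biological coefficient of variation was 0.194. Both subunit pairs were compared over the libraries by an exact permutation test that flips signs, two-sided, with Benjamini-Hochberg adjustment over the 2 tests. Differences on the log2(TPM + 1) scale understate the fold of low genes. The second quantification was summed over the transcripts of each gene. Promoters came from RefSeq, and 84 of 84 GENCODE transcript starts compared had the same letters.

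Genes with a value in each library were named by rule: in each role the 3 highest and the lowest by mean TPM, the subunit pairs, the 3 highest and lowest retained intron shares, the 3 largest and smallest SDs, the 3 largest differences between quantifications in each direction, and of each further list the 2 highest and the lowest. A gene that this rule names is not reported here. Alternatives were DESeq2 1.42.0 size factors, no scaling, scaling over protein coding genes, other filters and pseudocounts, the second quantification and each library left out.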

Additional observations from a re-analysis of the deposited data

How the results depend on the processing

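Of 67 recomputed values 57 kept their direction and, for counts, stayed within 1.5 times or, for medians without a direction, within the spread between libraries. Of the rest 9 moved and 1 turned. Some of the 57 could not have changed. All 44 members were detected, so leaving out a library kept that count, and keeping only detected members left the medians as they were. The tally therefore overstates how far the results were tried. The median log2(TPM + 1) of the members, 6.04, was 6.45 in the second quantification and 7.96 with TPM rescaled over protein coding genes. The V1 minus V0 difference, -0.37, ranged from -0.50 to -0.22 with 1 library left out and was -0.66 in the second quantification. The difference of Atp6v0d2 and Atp6v0d1 ranged from -0.15 to 0.33 with 1 library left out, and was 1.24 without length normalization. The number of members lowest in replicate 3 was 14 without a scaling factor and 9 in the second quantification, against 45.0% and 31.3% of genes. The median SD between libraries ranged from 0.14 to 0.22 with 1 library left out. The median retained intron share was 43.5% in the second quantification and 40.1% from counts, beside 44.5% and 30.2% over all genes. The TCACGTGA form was found in 5 promoters. With 3 libraries no pair test could reach 0.05, and with 2 the smallest exact p was 0.5. The number of members lowest in replicate 2, 31, was 23 without a scaling factor, against 33.9% and 18.5% of genes. Apart from the subunit pairs compared within libraries, a replicate block could not be fitted with 1 group. Depth limits Atp6v1f and Smpd1 most.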
